A study of Homo sapiens with 36 samples.

Results

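The comparison described here is that of WI-38 cells at the end of a 24 h SDS treatment (PMD-Sen D0) with proliferating untreated WI-38 cells (Ctrl), by small RNA sequencing. It used 4 of the 36 libraries in the dataset, 2 for each group, and every row of the table of mature miRNAs. The libraries were chosen by their labels alone, and no measured value entered the choice. WI-38 is a strain of normal human lung fibroblasts. The Ctrl cells were labelled as young and proliferating and received no agent, and the PMD-Sen D0 cells received 0.0095% SDS and were collected at the time of washout. PMD-Sen stands for senescence after plasma membrane damage, and the later PMD-Sen groups, D1 to D16, were kept without SDS after the same treatment. DDR-Sen D0 cells, which serve below as another treated group, received 250 nM doxorubicin (DXR), a DNA-damaging drug, also for 24 h. The later DDR-Sen groups, D1 to D16, were kept without DXR after the same treatment. Cells of the replicative senescence group (RS) were passaged serially. Values of these groups are given below for reference, and the spread in the tests was estimated over all 18 groups. All groups were the same cell strain in culture, and the 2 libraries of a group were labelled as biological replicates. No senescence marker was measured in these libraries, so the D0 cells are described by their treatment and not by a state.

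SDS is a detergent that opens the plasma membrane, and cells that survive such damage can reseal it and later stop dividing. A mature miRNA is a short RNA cut from a hairpin precursor. It is loaded into an Argonaute protein and directs it to mRNAs that pair with its seed, the bases 2 to 8 from the 5' end. Mature miRNAs are often long-lived, so their levels can lag behind the transcription of their genes.

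Sequences are shown here because they identify what was counted and let the seeds be compared. They belong to the 8 miRNAs of smallest p value among those past both thresholds. These thresholds were an unadjusted p below 0.05 and a fold change above 2. Some miRNAs below the fold threshold, such as miR-93-5p, had smaller p values than some of the 8. All sequences are RefSeq mature sequences (GRCh38.p14), 5' to 3', with the seed in capitals.
miR-7-5p: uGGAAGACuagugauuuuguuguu
miR-335-3p: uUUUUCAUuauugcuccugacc
miR-1246: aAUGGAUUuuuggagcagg
miR-1260b: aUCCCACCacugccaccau
miR-664a-3p: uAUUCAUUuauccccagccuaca
miR-490-3p: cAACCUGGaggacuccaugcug
let-7b-3p: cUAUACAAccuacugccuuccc
miR-7706: uGAAGCGCcugugcucugccgaga
The seeds of these 8 miRNAs differ from each other, and let-7b-3p alone shares its seed with another tested miRNA, let-7a-3p. A second set is shown because its members share a seed. miR-212-3p passed both thresholds, and miR-132-3p was added after its values were seen.
miR-212-3p: uAACAGUCuccagucacggcc
miR-132-3p: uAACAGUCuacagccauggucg

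The PMD-Sen D0 libraries were the smallest of the dataset, with 104436 and 81670 counts against 223548 and 327357 in Ctrl. They held 464 and 408 detected miRNAs against 547 and 601. When every library was thinned at random to 81670 counts, the numbers were 438 and 408 against 432 and 436. The 10 most abundant miRNAs took 51.0% to 53.5% of each of the 4 libraries. Replicates resembled each other less at PMD-Sen D0 than in Ctrl, with a median difference of 0.546 against 0.282 on the log2 CPM scale. Their correlation over the 360 tested miRNAs was 0.937, the lowest of the 18 groups, and 0.976 in Ctrl. CPM is the count of a miRNA scaled to 1e+06 counts of the library, with the library total adjusted by the TMM method. In bulk RNA such as this, fewer cells of a type and less RNA per cell cannot be told apart.

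The 10 most abundant miRNAs of Ctrl had fitted fold changes of at most 1.32-fold in either direction. let-7a-5p was at 119967 and 84732 CPM in Ctrl and at 116841 and 98706 CPM at PMD-Sen D0, a log2 fold change of 0.07 (SE 0.20). miR-21-5p, a miRNA abundant in fibroblasts, had 60802 and 64610 CPM in Ctrl. It had 44498 and 95507 CPM at PMD-Sen D0, so the treated replicates lay on either side of Ctrl. miR-222-3p, a repressor of the cell cycle inhibitor CDKN1B, had 70088 and 84870 CPM in Ctrl and 68888 and 48640 CPM after SDS. Its log2 fold change of -0.40 (SE 0.16) had an adjusted p of 0.293 (Benjamini-Hochberg, over the 360 miRNAs tested by the quasi-likelihood method of edgeR). Of the other 7, miR-30d-5p had the lowest log2 fold change, -0.38, and let-7f-5p the highest, 0.12. miR-100-5p, miR-10a-5p, miR-125a-5p, miR-125b-5p and miR-221-3p had -0.25, -0.14, -0.13, -0.06 and -0.00368. The median log2 fold change of all 360 tested miRNAs was -0.03, with 170 higher and 190 lower.

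At PMD-Sen D0, 11 miRNAs fell and 8 rose at an unadjusted p below 0.05 and a fold change above 2, the thresholds of the study. These are 3.06% and 2.22% of the 360 tested, or 5.28% for both directions together. At an unadjusted p below 0.05 with any fold, 42 miRNAs (11.7%) differed. With p adjusted by Benjamini-Hochberg over all 360, edgeR left 1 miRNA (0.278%), miR-7-5p. In 17 of the 19 called miRNAs the 2 libraries of one group lay beyond those of the other, as they did in 40.3% of all tested miRNAs. Most calls rested on few reads, since 15 of the 19 had fewer than 10 counts in both PMD-Sen D0 libraries. The count at adjusted p was 4 without Ctrl replicate 1 and 2 without PMD-Sen D0 replicate 1, and without Ctrl replicate 2 it was 0, with 9 rises and 11 falls at unadjusted p. Leaving out PMD-Sen D0 replicate 2 changed the number of rises from 8 to 20, and leaving out PMD-Sen D0 replicate 1 changed the number of falls from 11 to 21. With every library thinned to 81670 counts, the numbers were 4 and 7 (medians of 11 draws).

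**Figure D1:**
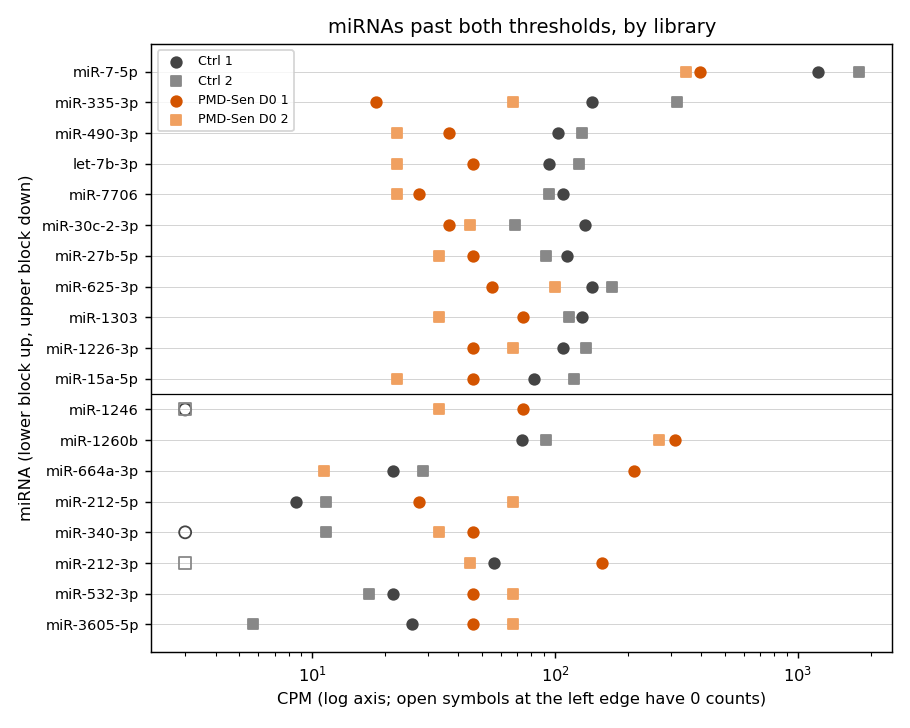
The 19 miRNAs past both thresholds, with the CPM of each library on a log axis. Filled circles and squares are replicates 1 and 2 of Ctrl (grey) and PMD-Sen D0 (orange), and open symbols at the left edge are libraries with 0 counts. The groups are separate in 17 of the 19 rows, and miR-664a-3p and miR-212-3p are the rows in which they overlap.

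miR-7-5p, which is known to repress the EGF receptor and other members of its signalling pathway, was the best supported of the lowered miRNAs. It had 281 and 623 counts in Ctrl (1207 and 1782 CPM) and 43 and 31 counts at PMD-Sen D0 (395 and 345 CPM). Both treated libraries lay below both control libraries. The mean was 1495 ± 406 CPM (SD, n = 2) in Ctrl and 370 ± 35.1 CPM (SD, n = 2) after SDS, a 4.03-fold fall. The log2 fold change was -2.01 (SE 0.42) and the adjusted p by edgeR was 0.0133. Omitting any of the 4 libraries gave values from -2.41 to -1.74, while the adjusted p was 0.00870 without Ctrl replicate 1, 0.338 without Ctrl replicate 2, 0.0708 without PMD-Sen D0 replicate 1 and 0.0977 without replicate 2. In the RefSeq set used here, the mature sequence is encoded at chr9:83969811-83969834 on the minus strand and at chr19:4770700-4770723 on the plus strand (GRCh38.p14). The former lies within an annotated exon of HNRNPK and the latter within an intron of the lncRNA MIR7-3HG. A further copy, MIR7-2, was not in that set. Reads of these copies cannot be told apart.

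miR-335-3p showed the lowest log2 fold change of the falls. It comes from the 3' arm of a hairpin in an intron of MEST, an imprinted gene whose transcript carries the precursor. The mature miRNA lies at chr7:130496162-130496183. Its counts were 33 and 111 in Ctrl and 2 and 6 at PMD-Sen D0, or 142, 317, 18.4 and 66.9 CPM. The groups did not overlap, although the replicates of each differed by more than 2-fold. The log2 fold change was -2.51 (SE 0.61, adjusted p = 0.0533), and it was -1.82 without Ctrl replicate 2 and -3.70 without PMD-Sen D0 replicate 2. miR-335-5p, the other arm and the more abundant in Ctrl, had a mean of 674 CPM in Ctrl and 515 and 591 CPM at PMD-Sen D0, with a log2 fold change of -0.29 (SE 0.35).

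miR-490-3p, encoded at chr7:136903242-136903263 in an intron of the muscarinic receptor gene CHRM2, fell from 24 and 45 counts to 4 and 2. In CPM the libraries were at 103 and 129 in Ctrl and 36.8 and 22.3 after SDS, with no overlap. The log2 fold change reached -1.94 (SE 0.57, adjusted p = 0.0978), whereas that of miR-490-5p, the other arm, was -0.00465 (SE 0.59). miR-7706, within an exon of AKAP13 at chr15:85380639-85380662, had 25 and 33 counts in Ctrl and 3 and 2 at PMD-Sen D0. The log2 fold change of miR-7706 was -1.99 (SE 0.69). Both treated libraries were at or under the floor of 3 counts taken for a library. At that floor the fall from the Ctrl mean would be 3.31-fold, which is not a lower bound, since both libraries held reads. The floor covers counting error only.

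Several falls concerned the minor arm of a hairpin whose main product did not pass the test. let-7b-3p is the less abundant arm of let-7b, whose main product let-7b-5p represses cell cycle and growth genes. let-7b-3p had 22 and 44 counts in Ctrl and 5 and 2 at PMD-Sen D0 (log2 fold change -1.66, SE 0.57), while let-7b-5p had a log2 fold change of 0.41 (SE 0.29). miR-30c-2-3p, known as a repressor of the stress transcription factor XBP1, had 31 and 24 counts against 4 and 4, or 133 and 68.6 CPM against 36.8 and 44.6. The log2 fold change of miR-30c-2-3p was -1.28 (SE 0.49), and that of miR-30c-5p was 0.05 (SE 0.29). miR-27b-5p had 26 and 32 counts against 5 and 3 (-1.32, SE 0.52), and miR-27b-3p, the main arm, had 0.02 (SE 0.28). Over the 90 hairpins with both arms tested, the median log2 fold change was 0.00134 for minor arms and 0.07 for major arms, and the minor arm had the lower value in 47. Of the 8 lowered miRNAs with another arm listed, 4 were the minor arm. Among the 6 raised miRNAs with another arm listed it was also 4, so minor arms were not particular to the falls.

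The remaining falls were smaller or rested on few counts. miR-15a-5p, a repressor of the survival gene BCL2, had 19 and 42 counts in Ctrl and 5 and 2 after SDS (log2 fold change -1.54, SE 0.73). miR-625-3p, from an intron of FUT8, had 142 and 172 CPM against 55.1 and 100.3 CPM. For miR-1303, from an intron of LARP1, the libraries had 129 and 114 CPM in Ctrl and 73.5 and 33.4 CPM at PMD-Sen D0. miR-1226-3p, from an intron of DHX30, had 107 and 134 CPM against 45.9 and 66.9 CPM. Their log2 fold changes were -1.04, -1.14 and -1.13, close to the threshold, and the adjusted p of these 4 miRNAs lay between 0.293 and 0.397.

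Among the miRNAs that rose, miR-1260b rested on the highest level in both replicates. It had 17 and 32 counts in Ctrl and 34 and 24 at PMD-Sen D0, which at the smaller totals is 73.0 and 91.5 CPM against 312 and 267 CPM. The means were 82.3 ± 13.1 CPM and 290 ± 31.8 CPM (SD, n = 2), a 3.49-fold rise. The log2 fold change was 1.81 (SE 0.47, adjusted p = 0.0585), and it stayed between 1.52 and 1.95 with any of the 4 libraries omitted. The locus, chr11:96341447-96341465 on the plus strand, lies opposite an exon of MAML2. The miR-1260 sequences resemble part of a tRNA, and reads of such fragments cannot be told apart from it in these counts.

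miR-1246 had 0 counts in both Ctrl libraries and 8 and 3 at PMD-Sen D0 (73.5 and 33.4 CPM). With the floor of 3 counts per library in Ctrl, it was at least 4.98-fold higher after SDS (adjusted p = 0.0585 by edgeR). Against the same Ctrl libraries, its fitted log2 fold changes ran from 2.18 to 6.56 at PMD-Sen D1 to D16, with 6 calls. They ran from 1.83 to 5.57 after DXR, with 1 call, so a value above Ctrl was not particular to PMD-Sen D0. The annotated locus of miR-1246 is chr2:176601024-176601042 on the minus strand, and its sequence is close to a stretch of the U2 small nuclear RNA. miR-664a-3p, whose locus chr1:220200549-220200571 lies in an intron of RAB3GAP2 and in an exon of the small nucleolar RNA SNORA36B, went from 5 and 10 counts to 23 and 1. Its treated libraries, at 211 and 11.1 CPM, lay above and below Ctrl (21.5 and 28.6 CPM). The log2 fold change of 2.18 (SE 0.63) became -1.21 without PMD-Sen D0 replicate 1. Against the same Ctrl libraries, miR-664a-3p ran from 1.70 to 2.51 at PMD-Sen D1 to D16, with 7 calls. After DXR it ran from 1.16 to 3.42, also with 7 calls, so a value above Ctrl was not particular to PMD-Sen D0.

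Both arms of miR-212 also rose, while those of miR-132, its neighbour in the genome, did not pass both thresholds. The pair lies on the minus strand of chr17, with miR-132-3p at 2049929 to 2049950 and miR-212-3p at 2050290 to 2050310, and is known to be induced by CREB. miR-212-3p had 55.9 and 0 CPM in Ctrl (13 and 0 counts) and 156 and 44.6 CPM at PMD-Sen D0 (17 and 4 counts). The groups overlapped, and the log2 fold change was 2.06 (SE 0.86). miR-212-5p had 2 and 4 counts against 3 and 6, or 8.59 and 11.4 CPM against 27.6 and 66.9 CPM (log2 fold change 2.14, SE 0.85). miR-132-3p, the most abundant product of the pair and the one with the same seed as miR-212-3p, had 786 and 449 CPM in Ctrl. At PMD-Sen D0 it had 1470 and 814 CPM, so the groups did not overlap, with a log2 fold change of 0.90 (SE 0.35, adjusted p = 0.293) that stayed below the fold threshold. Omitting a library gave values from 0.38 (without PMD-Sen D0 replicate 1) to 1.21 (without PMD-Sen D0 replicate 2). It was 0.49 without Ctrl replicate 2 and 1.19 without Ctrl replicate 1, and the values of 1.19 and 1.21 were past both thresholds. miR-132-5p had a log2 fold change of 0.49, with the treated libraries at -0.02 and 1.05 from the Ctrl mean on the log2(CPM + 1) scale.

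The last members of the raised group were close to the limit of detection. miR-340-3p, from an intron of RNF130, had 0 and 4 counts in Ctrl and 5 and 3 at PMD-Sen D0. miR-532-3p, from an intron of CLCN5, had 5 and 6 counts in each group. At the smaller totals this was 21.5 and 17.2 CPM against 45.9 and 66.9 CPM, so the call rested on the difference in library total. miR-3605-5p, from an intron of PHC2, had 6 and 2 counts against 5 and 6. The log2 fold changes were 2.54 (SE 1.01), 1.54 (SE 0.70) and 1.93 (SE 0.91).

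Of the 19 calls, 6 held with any of the 4 libraries omitted, those of miR-7-5p, miR-335-3p, miR-490-3p, miR-7706, miR-1260b and miR-1246. Without Ctrl replicate 1 the calls of miR-30c-2-3p (log2 fold change -0.91), miR-532-3p (1.55), miR-212-5p (1.86) and miR-340-3p (1.63) were lost. Without Ctrl replicate 2 those of miR-625-3p (-0.92), miR-1226-3p (-0.98), miR-15a-5p (-1.26), miR-212-3p (0.81), miR-3605-5p (1.08) and miR-532-3p (1.34) were lost. Only the call of miR-532-3p was lost without either library of untreated cells. PMD-Sen D0 replicate 1 was needed for miR-625-3p (-0.69 without it), miR-30c-2-3p (-1.17), miR-1226-3p (-0.90), miR-212-3p (0.83), miR-3605-5p (2.15), miR-340-3p (2.24) and miR-664a-3p (-1.21). PMD-Sen D0 replicate 2 was needed for miR-1303 (-0.77), miR-27b-5p (-1.18), let-7b-3p (-1.32), miR-15a-5p (-1.20), miR-3605-5p (1.59), miR-532-3p (1.20) and miR-212-5p (1.35).

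**Figure D2:**
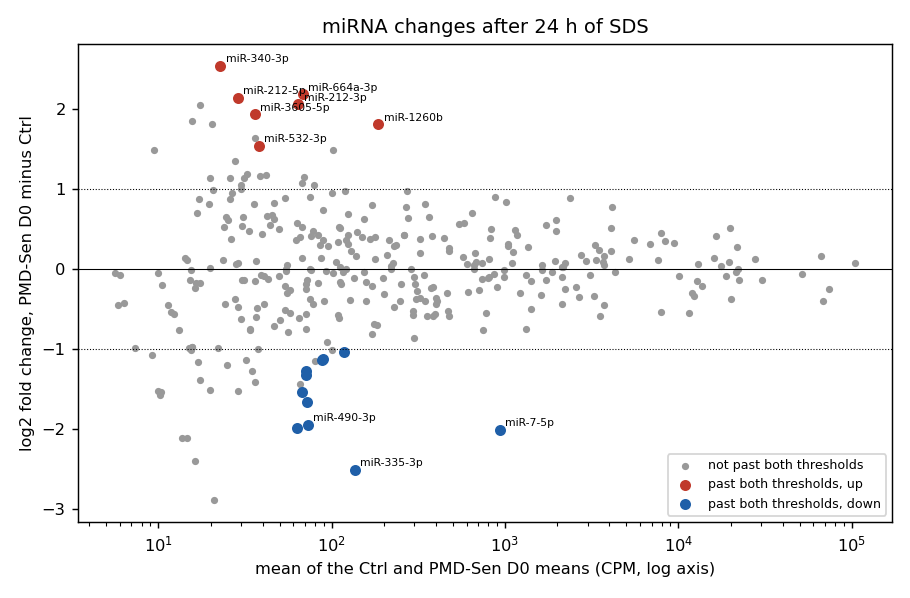
Log2 fold change of PMD-Sen D0 over Ctrl against the mean level (CPM, log axis), with red and blue points for miRNAs past both thresholds and dotted lines at a fold change of 2. miRNAs with 0 counts in both libraries of a group, miR-1246 among them, are not drawn. miR-7-5p is the coloured point farthest to the right, at Ctrl and PMD-Sen D0 means of 1495 and 370 CPM.

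Groups of miRNAs with a known role were then described by their counts and medians, beside 5.28% of all tested miRNAs called and a median of -0.03. Among the miRNAs that act on the cell cycle, 0 of 9 tested let-7 and miR-98 guide strands passed both thresholds, with a median log2 fold change of 0.12. Of the 9, 7 were higher after SDS, and without Ctrl replicate 2 this was 4, with a median of -0.00677. let-7c-5p had the smallest p of the family, at 0.70 (SE 0.31). The miR-17 family clusters promote proliferation, and 8 of their 9 tested members were lower after SDS, with a median of -0.40 and 0 calls. With only the 4 libraries in the fit 5 of 7 were lower, and with a mean of at least 10 counts 7 of 9. The median was -0.69 without Ctrl replicate 1 and -0.18 without Ctrl replicate 2. The most abundant was miR-92a-3p, with -0.04 (SE 0.23). miR-93-5p had 1013 and 1455 counts in Ctrl and 301 and 258 at PMD-Sen D0. In CPM the Ctrl mean was 4257 and the treated libraries had 2766 and 2876, a log2 fold change of -0.59 (SE 0.17, adjusted p = 0.0930). In the miR-15/16 family, 1 of 5 tested members fell (miR-15a-5p), and the median was 0.03, with miR-16-5p, its most abundant member, at -0.35 (SE 0.26). That median lay between -0.31 and -0.02 with any of the 4 libraries omitted, the lowest without PMD-Sen D0 replicate 1.

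p53-induced miRNAs did not pass the test in either direction after SDS. Of 6 tested, 3 were higher and 3 lower, with a median of -0.26. Without Ctrl replicate 1 all 6 were lower, with a median of -0.59, and without Ctrl replicate 2 the median was 0.02. Without PMD-Sen D0 replicate 1 it was -0.17, and without replicate 2 it was -0.40. miR-34a-5p, the p53 target best known for halting the cell cycle, had 82 and 123 counts in Ctrl and 26 and 21 at PMD-Sen D0. This is a mean of 352 CPM against 239 and 234 CPM, a log2 fold change of -0.57 (SE 0.32). miR-34c-5p had 6 and 20 counts against 2 and 3.

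Of the miRNAs linked to the unfolded protein response, 1 of 14 tested fell (miR-30c-2-3p), and the median log2 fold change was 0.04. It was -0.15 without PMD-Sen D0 replicate 2, -0.11 without Ctrl replicate 1 and 0.16 without Ctrl replicate 2. The most abundant of them were miR-222-3p, described above, and miR-30d-5p, at -0.38 (SE 0.19). miR-214-3p, which also belongs to the fibroblast set, had 786 and 954 counts in Ctrl and 753 and 317 after SDS. The treated libraries had 6920 and 3533 CPM against a Ctrl mean of 3053 CPM, and the log2 fold change of 0.78 (SE 0.26, adjusted p = 0.210) was below the threshold.

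Among the miRNAs tied to inflammation and NF-kB, 2 of 10 tested rose, miR-212-5p and miR-212-3p, and 0 fell. The median was 0.35, with 8 higher and 2 lower, and it was 0.13 without PMD-Sen D0 replicate 2 and 0.20 without Ctrl replicate 1. miR-155-5p, a miRNA of inflammatory signalling, had 8830 and 9908 CPM in Ctrl and 7223 and 5729 CPM at PMD-Sen D0. The log2 fold change of -0.53 (SE 0.25, adjusted p = 0.397) came with no overlap between the groups. miR-146a-5p, a feedback repressor of NF-kB signalling, had 11 and 13 counts in Ctrl and 5 and 13 at PMD-Sen D0, with a log2 fold change of 1.15 (SE 0.61).

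The matrix and mesenchymal miRNAs had 0 calls among 11 tested and a median of 0.31, which was -0.19 without PMD-Sen D0 replicate 2 and 0.63 without PMD-Sen D0 replicate 1. The most abundant, miR-143-3p and miR-29a-3p, had -0.30 (SE 0.37) and 0.06 (SE 0.25). miR-29a-3p is known to repress collagens. The cluster of miR-424 and miR-503-5p had 0 calls among 6 tested and a median of 0.29, with miR-503-5p at 0.03 (SE 0.19) and miR-424-3p at 0.55 (SE 0.22). The median of the cluster was 0.05 without either PMD-Sen D0 library and 0.09 without Ctrl replicate 1. In the list for hypoxia and redox there were 0 calls among 5. miR-210-3p, the main hypoxia-induced miRNA, had 4 and 6 counts in Ctrl and 2 and 0 at PMD-Sen D0. Another member, miR-27a-3p, had 404 and 558 counts in Ctrl and 204 and 386 after SDS. In CPM this was 1736 and 1596 against 1875 and 4302, so most of the rise lay in PMD-Sen D0 replicate 2. The log2 fold change of miR-27a-3p, 0.89 (SE 0.28, adjusted p = 0.133), was below the threshold. The 3 tested members of the miR-320 family, which is made without Drosha, were all higher, with a median of 0.53 (0.21 without Ctrl replicate 1) and 0 calls. miR-320a, the most abundant of them, had a log2 fold change of 0.51 (SE 0.36), and miR-320b had 0.97 (SE 0.47).

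The list of miRNAs whose sequences overlap or resemble other structural RNAs held 3 of the 8 rises, miR-1246, miR-1260b and miR-664a-3p, among 7 tested, and 0 falls. This list, like the others, was chosen with earlier results of these data known, so its calls and median are not independent evidence. Its median was 1.49 as fitted, or 1.12 over 6 members with miR-1246 at its bound and miR-4454 left out as at the floor in both groups. The summed level of the list was 494 and 850 CPM in Ctrl and 1103 and 691 CPM at PMD-Sen D0, so the sums overlapped. Without PMD-Sen D0 replicate 1 the fitted median was -0.34, with 3 of 7 higher. miR-4521, the most abundant member, had a log2 fold change of -0.59 (SE 0.36). These miRNAs are uncertain, since fragments of tRNA, snRNA or snoRNA can be counted under their names, and whether they were was not tested.

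**Figure D3:**
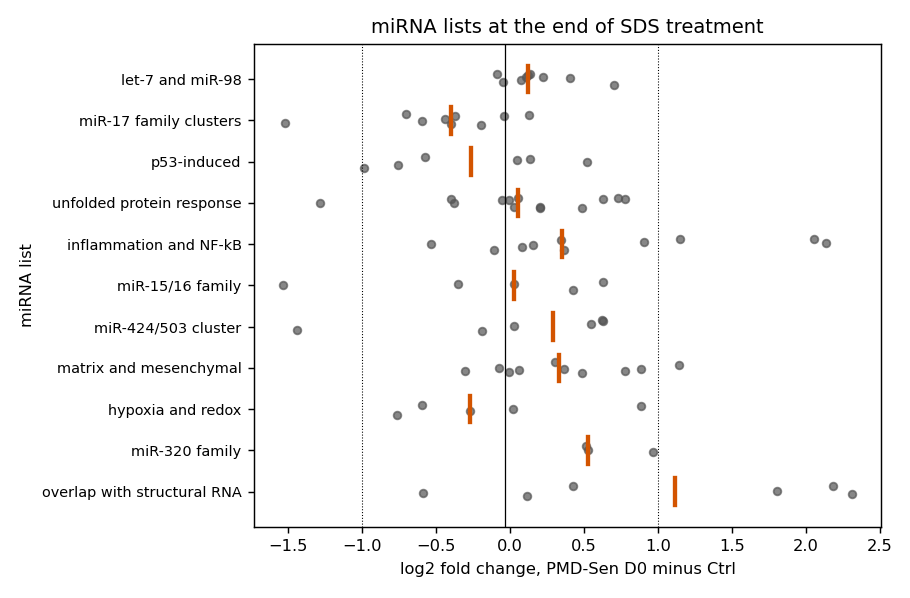
Log2 fold change of PMD-Sen D0 over Ctrl for the tested members of 11 lists (grey points) with the median of the list (orange bar), the median of all tested miRNAs (solid line) and a fold change of 2 (dotted lines). miR-1246 is drawn at its lower bound, and members at or under the floor in both groups are left out. Of the lists drawn, which leave out the cell type markers, that of structural RNA overlaps has the highest median, 1.12, and the miR-17 family clusters the lowest, -0.40.

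A list of 5 was taken from the larger number of miRNAs that the study names, and as the study chose them on these samples they are not independent evidence. Of these 5, miR-1260b rose, miR-7-5p fell, and 3 did not pass both thresholds. miR-374b-5p had 46 and 69 counts in Ctrl and 36 and 31 at PMD-Sen D0, or 198 and 197 CPM against 331 and 345 CPM. The groups did not overlap, with a log2 fold change of 0.77 (SE 0.32, adjusted p = 0.327). miR-495-3p had 1053 and 998 CPM in Ctrl and 937 and 1438 CPM after SDS, so its groups overlapped (0.21, SE 0.26). miR-155-5p was given above.

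Markers of fibroblasts were high in sum in both groups. The 12 fibroblast miRNAs summed to 227155 and 230657 CPM in Ctrl and 208025 and 242028 CPM at PMD-Sen D0, and 0 of the 11 tested were called. The most abundant were miR-100-5p, miR-21-5p and miR-125b-5p, with Ctrl means of 80159, 62706 and 53016 CPM, while miR-199b-5p had 120 CPM. miR-10b-5p was the member at the limit, with 0 and 4 counts in Ctrl and 0 and 1 after SDS. Of 8 blood markers 6 were in the table, and these summed to 206, 194, 303 and 145 CPM in the same order. Nearly all of that was miR-486-5p, while miR-451a had 1, 0, 0 and 1 counts and miR-223-3p and miR-150-5p had 0. Epithelial markers summed to 73.0 and 28.6 CPM in Ctrl and 55.1 and 55.7 CPM at PMD-Sen D0, with miR-141-3p and miR-205-5p at 0. Endothelial markers summed to 55.9 and 42.9 CPM against 18.4 and 44.6 CPM. The muscle and neuronal lists were at 0 in both treated libraries, where a 0 allows up to 3 counts. miR-122-5p, the liver miRNA, had 23 and 5 counts in Ctrl and 14 and 15 at PMD-Sen D0, a log2 fold change of 1.48 (SE 0.89, adjusted p = 0.579) that was 3.20 without Ctrl replicate 1 and 0.54 without Ctrl replicate 2.

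The treated replicates differed from each other along GC content. A RefSeq mature sequence was found for 325 of the 360 tested miRNAs, including all 19 called. Across these 325, GC content had a Spearman correlation of 0.266 with the log2 difference of PMD-Sen D0 replicate 1 from the Ctrl mean and of -0.251 with that of replicate 2. In the class of at most 35% GC (23 miRNAs), the median difference was -0.66 in replicate 1 and 0.35 in replicate 2. In the class above 65% GC (35 miRNAs), it was 0.23 and -0.48. With the fitted fold change, which takes both replicates, the correlation was 0.00161. GC content had a correlation of 0.437 with the difference between the PMD-Sen D0 replicates and of -0.0462 with that between the Ctrl replicates. In the other 16 groups this correlation ran from -0.530 (PMD-Sen D2) to 0.525 (RS, replicative senescence), so values as large were not particular to PMD-Sen D0. The later PMD-Sen groups ran from -0.530 (D2) to -0.106 (D4), and DDR-Sen D4 (0.116), DDR-Sen D16 (0.206) and RS were positive. The difference is replicate 1 minus replicate 2, so its sign depends on which library was numbered 1. Signs of different groups can therefore not be compared. These correlations are across miRNAs of the same libraries, which are not independent replicates. The median GC content was 50% for the called miRNAs of either direction and for those not called. miR-7-5p, at 33.3% GC, was low in both treated libraries. How far GC content contributed to the calls was not tested.

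**Figure D4:**
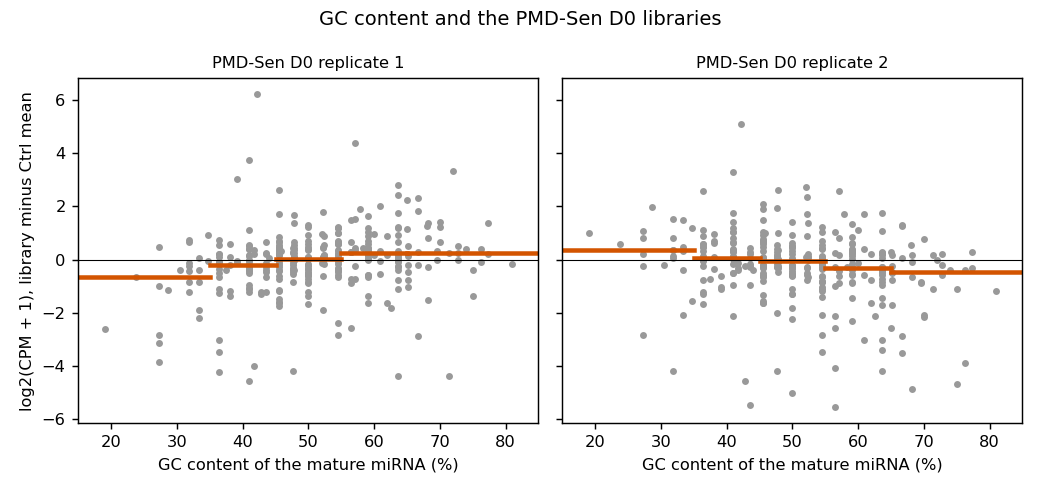
GC content of the mature miRNA (%) against the difference of each PMD-Sen D0 library from the mean of the Ctrl libraries, on the scale of log2(CPM + 1), for 325 miRNAs (grey points) and the median of each GC class (orange bars). The medians run from -0.66 to 0.23 in replicate 1 and from 0.35 to -0.48 in replicate 2, from the lowest to the highest class.

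PMD-Sen D0 was next compared directly with DDR-Sen D0, the other group collected at the end of a 24 h treatment. In this contrast 25 miRNAs passed both thresholds (6.94% of 360), 12 higher and 13 lower after SDS, and 6 did so at adjusted p. miR-1260b differed most clearly, with 290 CPM after SDS and 30.5 CPM after DXR, a log2 difference of 3.25 (SE 0.51, adjusted p = 0.000192). miR-335-3p was lower after SDS by a log2 difference of -2.78 (SE 0.60, adjusted p = 0.0122), and its DDR-Sen D0 mean of 279 CPM was near that of Ctrl, 230 CPM. miR-7-5p was at 1251 and 1176 CPM after DXR, so both SDS libraries were below both DXR libraries (log2 difference -1.71, SE 0.41, adjusted p = 0.0245).

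miR-34a-5p also differed at adjusted p, with a mean of 237 CPM after SDS and 586 CPM after DXR (log2 difference -1.30, SE 0.32, adjusted p = 0.0245). The last of the 6 were miR-296-3p (2.36, SE 0.59, adjusted p = 0.0294) and miR-487b-5p (1.97, SE 0.52, adjusted p = 0.0409), named after their values were seen. Their means were 131 and 69.2 CPM after SDS and 25.1 and 18.0 CPM after DXR. Against Ctrl their log2 fold changes at PMD-Sen D0 were 0.94 and 0.36, and neither was called. Of the 19 miRNAs called against Ctrl, 9 were also called against DXR, but both contrasts use the same 2 SDS libraries, so the counts are not independent.

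PMD-Sen D0 was also compared with PMD-Sen D1, collected 1 day after washout. Here 14 miRNAs passed both thresholds (3.89% of 360), 5 higher and 9 lower at D0. At adjusted p edgeR gave 0, against 21 at unadjusted p alone, and DESeq2 on the 4 libraries gave 2 past both thresholds. Omitting a library raised the 14 to 27 (PMD-Sen D0 replicate 1), 25 (PMD-Sen D0 replicate 2), 33 (PMD-Sen D1 replicate 1) and 20 (PMD-Sen D1 replicate 2). miR-1260b was at 290 CPM at D0 and 74.9 CPM at D1 (log2 difference 1.94, SE 0.49, adjusted p = 0.165). miR-7706 had 3 and 2 counts at D0 and 19 and 31 at D1, with a log2 difference of -2.32 (SE 0.69). miR-7-5p was lower at D0 by a log2 difference of -1.23 (SE 0.42, adjusted p = 0.299), with D1 replicates far apart at 1219 and 497 CPM.

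The values at later time points are given beside those at D0 as a description, since each is set against the same 2 Ctrl libraries and the miRNAs were chosen for their difference at D0. Of the 19 miRNAs called at D0, 11 were not called at any of PMD-Sen D1 to D16. Only 7 were called neither there nor at any DXR time point. miR-1260b, at 1.81 at D0, had log2 fold changes from -0.53 to 0.44 at D1 to D16. miR-7-5p had -2.01 at D0, -0.78 at D1, -0.53 at D2, -0.76 at D3, -1.15 at D4, -1.74 at D6, -1.29 at D8 and -1.32 at D16. It was thus lowest at D0, nearer to Ctrl at D2, and past both thresholds again from D4 on. After DXR it went from -0.30 at D0 to -2.22 at D16.

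For miR-335-3p and miR-490-3p the lowest PMD-Sen value came after D0. miR-335-3p had log2 fold changes of -2.51 at D0, -2.75 at D1 and -1.80 at D2, then -0.55 at D3 and 0.18 at D4. It was called at 0 of the 8 DXR time points, where its values lay between -0.47 and 0.45. miR-490-3p had -1.94 at D0, -2.45 at D1, -2.76 at D2 and -0.87 at D16. miR-132-3p had 0.90, 0.43, -0.03 and -0.53 at D0, D1, D2 and D3, and miR-212-3p had 2.06, 1.65, 0.80 and -0.19. At D0 of DXR this pair with a common seed had 0.35 and 1.05, without a call.

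**Figure D5:**
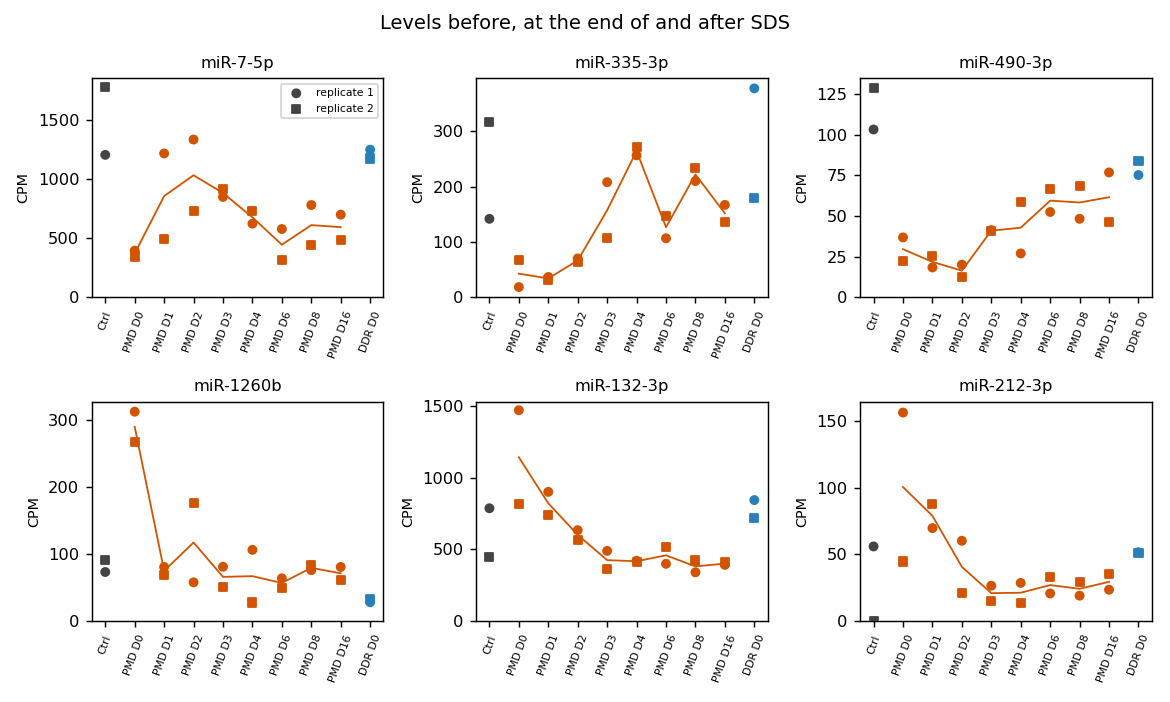
CPM of 6 miRNAs in each library of Ctrl (grey), PMD-Sen D0 to D16 (orange, the line joins the means) and DDR-Sen D0 (blue), with circles for replicate 1 and squares for replicate 2. miR-7-5p, miR-335-3p and miR-490-3p are below Ctrl at PMD-Sen D0, and miR-1260b is above Ctrl at D0 and back near it at D1.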

How the data were processed

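Small RNA libraries were made from total RNA of WI-38 cells. By the study's methods, the exceRpt pipeline (4.6.2) did the trimming, the mapping to GRCh38, the alignment against miRBase entries and the counting. The miRBase release is not given in the sources used here. The authors deposited expected counts per mature miRNA, not normalized. Reads that fit several miRNAs are split, so 1003 of 54288 values were not whole, and all were rounded.

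The main test was edgeR 4.0.16 in R 4.3.3 (TMM, filterByExpr over 18 groups, quasi-likelihood test on all 36 libraries). It tested 360 of 1508 miRNAs, which hold at least 99.8% of the counts of each of the 4 libraries compared. The biological coefficient of variation was 20.9%, with 18 residual degrees of freedom. Calls use the thresholds of the study (unadjusted p below 0.05, log2 fold change beyond 1 in either direction), with Benjamini-Hochberg adjustment beside them. SEs follow from the fold change and the F statistic. CPM uses TMM-scaled totals. The floor was 3 counts per library.

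Named miRNAs are all those past both thresholds, the 10 most abundant in Ctrl, 5 of those the study names, and in each list the most abundant and those of smallest p. The members and lists were chosen with earlier results of these data known. Locations are from RefSeq and GENCODE annotation of GRCh38, with exons of any transcript. The procedure was tested on simulated data. Alternatives were DESeq2 1.42.0, other size factors, filters, unrounded counts, thinning, a replicate block and leaving out each library.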

Additional observations from a re-analysis of the deposited data

Results flagged for a closer look

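For 3 of the miRNAs called at PMD-Sen D0, the effect of 24 h of SDS differed from that of 24 h of DXR in the direct contrast of the treated groups by edgeR, with p adjusted by Benjamini-Hochberg. The contrast equals the difference between the effects against the shared Ctrl libraries. For miR-1260b the SDS value was higher by 3.25 on the log2 scale (adjusted p = 0.000192), with 1.81 against Ctrl after SDS and -1.45 after DXR. For miR-335-3p the difference was -2.78 (adjusted p = 0.0122), from -2.51 after SDS and 0.27 after DXR. For miR-7-5p it was -1.71 (adjusted p = 0.0245), from -2.01 and -0.30.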

How the results depend on the processing

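Depth limits this comparison, since 1 count is worth 9.19 and 11.1 CPM in the treated libraries, and with 2 replicates a group the p values rest on a spread shared over 18 groups. With a library left out, the lone sample of its group is assumed to vary like the others. Of the 19 called miRNAs, 4 passed both thresholds in each alternative that could test them and without each of the 4 libraries (miR-7-5p, miR-335-3p, miR-1246 and miR-1260b). Of 445 recomputed fold changes of named miRNAs, 370 kept their direction and side of the thresholds, 56 lost the call, 2 gained it (both miR-132-3p) and 17 changed sign. The cause was not tested. Leaving aside the fits without a library, miR-1246 could be tested in 7 alternatives. miR-7-5p, miR-335-3p and miR-1260b could be tested in 10. The median log2 fold change of all tested miRNAs, -0.03, shifted to 0.13 with only the 4 libraries in the fit (242 tested) and to -0.15 with no filter.

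The 8 rises and 11 falls became 2 and 2 in DESeq2 on the 4 libraries, 4 and 6 in edgeR on the 4 libraries, 13 and 20 with no filter and 4 and 7 after thinning, and the rises became 5 with a mean of at least 10 counts. Leaving out each library gave 9 to 20 rises and 10 to 21 falls. The count at adjusted p was 2 with DESeq2 on all libraries, with its size factors in edgeR, with total counts and with no filter, and 0 to 4 with a library left out. Against DDR-Sen D0 the 25 calls became 10 in DESeq2 on the 4 libraries and 14 after thinning. Against PMD-Sen D1 the 14 calls became 2 in DESeq2 and 3 in edgeR on the 4 libraries, 24 with no filter, 9 after thinning and 20 to 33 with a library left out.

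Sign changes concerned values near 0, with the exception of miR-664a-3p, which ranged from -1.21 to 2.98 with a library left out. miR-221-3p had 0.020 in DESeq2 and 0.13 in edgeR on the 4 libraries, 0.016 with total counts, 0.063 with a mean of at least 10 counts, 0.042 after thinning and -0.29 to 0.16 with a library left out. miR-125b-5p had 0.061 in edgeR on the 4 libraries and -0.27 to 0.051 with a library left out. let-7a-5p had -0.043 with no filter and -0.19 to 0.21 with a library left out. The same ranges were -0.18 to 0.31 for let-7f-5p, -0.18 to 0.46 for miR-495-3p, -0.55 to 0.57 for miR-21-5p and -0.45 to 0.052 for miR-125a-5p.

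The groups share replicate numbers. The replicate differences of Ctrl and PMD-Sen D0 had r = -0.07. That of PMD-Sen D0 had r = -0.25 with that of PMD-Sen D1 and r = -0.25 with that of DDR-Sen D0. With 2 libraries a group, whether the numbers pair the samples could not be told. With the replicate number as a block, there were 8 rises, 12 falls and 1 miRNA at adjusted p, and 25 and 14 calls against DDR-Sen D0 and PMD-Sen D1.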
